A study of Mus musculus with 12 samples.

Results

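The integrated stress response genes followed here are Atf4, Atf5, Atf3, Ddit3, Nupr1, Trib3, Chac1, Sesn2, Asns and Psat1, which are 10 of the 21930 genes listed in the count table. They were chosen by symbol as members of this pathway, with earlier results of these libraries known. Which values led to the choice is not recorded. Every fold change and p-value below is therefore a description of where a gene stands in a fit over all genes, and not independent evidence. The symbols matched 11 entries, because Ddit3 was listed 2 times. The other Ddit3 entry had 0 counts in the 12 libraries and was not used.

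RNA-seq was performed on eye tissue of wild-type male C57BL/6J mice, which were 8 weeks old when the diets began. The 4 groups of 3 libraries were AL + PBS, IF + PBS, AL + NaIO3 and IF + NaIO3. AL mice fed ad libitum and IF mice were fasted on alternate days for 12 weeks. A single intraperitoneal injection of NaIO3 at 25 mg/kg, or of PBS, was then given, the diets were kept up, and the tissue was taken 7 days later. NaIO3 (sodium iodate) is an oxidant that damages the retinal pigment epithelium (RPE), so the model is a chemical injury given through the circulation and is not an inherited disease. The labels describe the tissue as RPE with choroid and sclera, and the methods describe eye cups. Of the 14 cell type marker lists, none had a marker at 0 counts in the 12 libraries. The 10 RPE markers summed to between 1296 and 3114 CPM (counts scaled to library size with TMM factors), and the 11 rod and cone markers to between 18200 and 59350, so RNA of the neural retina was present in every library. In such bulk tissue, fewer cells of a type and less RNA per cell cannot be told apart. Total counts per library were between 26364665 and 43046950.

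The integrated stress response is a shared answer of cells to several kinds of stress. The kinases PERK, GCN2, PKR and HRI sense stress in the endoplasmic reticulum, amino acid shortage, double-stranded RNA and haem or mitochondrial stress, and each phosphorylates the initiation factor eIF2. General translation then falls, while the messenger RNA of the transcription factor ATF4 is translated more. ATF4 acts with partners of the bZIP family on genes for amino acid supply, redox balance and cell fate. In the eye, RPE cells and photoreceptors have a high load of protein synthesis and oxidation, and the pathway is often studied in retinal degeneration. Since ATF4 is controlled to a large part at translation, the amount of its messenger RNA need not follow its activity, and RNA-seq does not measure eIF2 phosphorylation.

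The sites at which ATF4 and its partners bind are known as C/EBP-ATF composite sites. To show where letters of this kind lie near the start sites, the RefSeq promoter table (build GRCm38.p6), which gives 250 bases before to 50 bases after each annotated start, was searched on both strands with the motif TGATGNAAN. The 10 genes had 12 promoters in the table. A match was present in promoters of 5 of the 10 genes, Asns, Atf3, Chac1, Nupr1 and Trib3, and in 1299 of all 32851 promoters (3.95%). The 5 windows are printed here because they hold the only matches among these genes. Each line is read 5′ to 3′ on the strand of the gene, with the match in capitals and 8 flanking bases on each side. Where the match lies on the opposite strand, the capitals show its reverse complement.
Nupr1, chr7:126625565-126625589, minus strand: agggccagATTGCATCAgacagggc
Atf3, chr1:191183428-191183452, minus strand: ttctcgcaCTTGCATCAccaagtcc
Chac1, chr2:119351040-119351064, plus strand: tccctgccGTTGCATCActcctgcc
Asns, chr6:7693216-7693240, minus strand: cagccacaTGATGAAACttcccgca
Trib3, chr2:152344031-152344055, minus strand: agctcaggTTTACATCAgccgggcg
The matches of Nupr1, Atf3 and Chac1 share the run TTGCATCA and those of Asns and Trib3 differ from it. The match spans positions -111 to -103 in Nupr1, -111 to -103 in Atf3, -194 to -186 in Chac1 and -23 to -15 in Asns, all before the RefSeq start, and +13 to +21 in Trib3, which lies in the transcribed part. Positions are distances in bases from the RefSeq start base itself, so the match of Trib3 begins 13 bases after that base. Gene starts in the count table differ from those in RefSeq. The matches of Nupr1, Atf3 and Asns lie inside the longer genes of the count table, and that of Trib3 lies just outside its shorter gene.

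Other motifs were rarer among these promoters. The cyclic AMP response element TGACGTCA matched 0 of the 10 genes and 1.79% of all promoters. The AP-1 motif TGANTCA matched Ddit3 alone, from position -242 to -236, and 7.81% of all promoters.
Ddit3, chr10:127290543-127290565, plus strand: cgcgcgcaTGACTCActcacctc
The ER stress element, written as CCAAT and CCACG with 9 unspecified bases between them, matched 0 of the 10 genes and 0.119% of all promoters. A match describes letters in this window, and a missing match describes only their absence from it.

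On the per-length scale (FPKM, as deposited), the 10 genes covered a wide range of levels in AL + PBS. Atf4 stood highest at 118 ± 0.735 FPKM (SD, n = 3), followed by Ddit3 at 47.0 ± 0.778, and the ranges of these 2 genes met no other. Psat1 (16.3 ± 1.18), Asns (15.6 ± 0.935) and Atf5 (15.2 ± 0.845) formed a middle group in which neighbours overlapped. Nupr1 (8.54 ± 1.09) and Sesn2 (5.64 ± 0.351) came next without overlap. Atf3 (4.01 ± 0.525) and Trib3 (3.83 ± 0.126) overlapped each other, and Chac1 stood lowest at 2.25 ± 0.506. Atf4 and Ddit3 kept these 2 places, and Chac1 the last place, in all 4 groups. Nupr1 was number 6 in the other groups and number 3 in AL + NaIO3, where its 36.4 ± 13.2 FPKM overlapped the range of Ddit3 (45.9 ± 4.44). The order of the remaining genes changed between groups mostly among neighbours whose ranges overlapped.

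**Figure D1:**
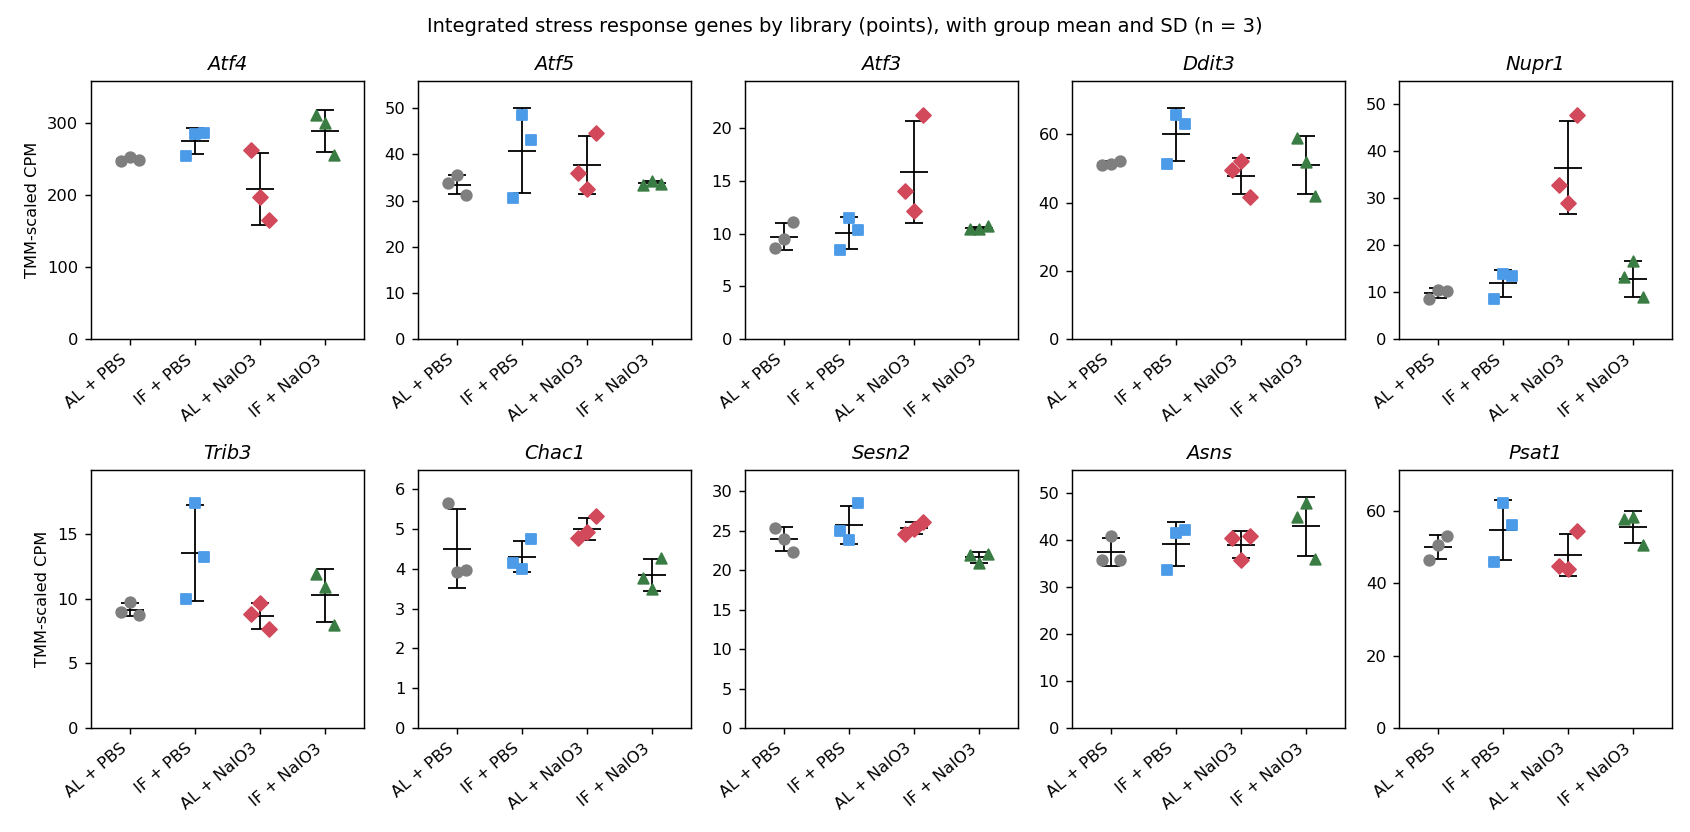
Level of each of the 10 genes in TMM-scaled CPM (vertical axes, each starting at 0) in the 12 libraries, by group. Points are libraries, and black marks are the group mean and SD of 3 libraries. Nupr1 lay between 28.9 and 47.7 CPM in AL + NaIO3 and at or below 16.6 CPM in each library of the other groups, while the other 9 genes showed smaller differences.

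Nupr1 encodes a small stress-induced chromatin protein that takes part in transcription under stress. It showed the largest difference among the 10 genes. Nupr1 was at 8.57, 10.6 and 10.2 CPM in the AL + PBS libraries and at 32.8, 28.9 and 47.7 CPM in the AL + NaIO3 libraries. It was at 8.51, 13.8 and 13.4 CPM in IF + PBS and at 13.2, 16.6 and 8.96 CPM in IF + NaIO3. The 3 AL + NaIO3 libraries were thus the 3 highest of the 12, replicate 3 was the highest, and the other groups overlapped one another.

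In AL + NaIO3 against AL + PBS, edgeR's quasi-likelihood test with Benjamini-Hochberg adjustment over all genes gave Nupr1 a log2 fold change of 1.90 (SE 0.22, 95% interval 1.40 to 2.41) and an adjusted p of 0.0476. This was a 3.74-fold rise. A call required a fold change of 1.5 or more together with an adjusted p under 0.05. By this rule 1 of the 10 genes, Nupr1, was called, beside 12 of all 15612 genes tested (0.0769%), and nothing is read from this share because the genes were chosen with these results known. Without AL + NaIO3 replicate 3 the adjusted p of edgeR's test was 0.00368, with a log2 fold change of 1.66, and 90 of all genes were called. Without AL + NaIO3 replicate 1 or 2 the gene was not called (adjusted p 0.0881 and 0.112 by edgeR), where 8 and 5 of all genes were. Without any one of the AL + PBS libraries edgeR called 0 of all genes, so that these fits say nothing of Nupr1 in particular. In the 5 fits without a call its log2 fold change was between 1.81 and 2.04.

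In IF + NaIO3 against AL + NaIO3, which shares the AL + NaIO3 libraries with the comparison above, Nupr1 had a log2 fold change of -1.51 (SE 0.27, 95% interval -2.13 to -0.88), or 0.352-fold. The 3 IF + NaIO3 libraries lay below the 3 AL + NaIO3 libraries. The adjusted p of edgeR's test was 0.145, so that the difference did not pass the threshold. DESeq2 called it, with an adjusted p of 4.12e-05, and so did edgeR fitted to the 12 libraries together, with an adjusted p of 0.0172, beside 190 of all 15970 genes. Of the 10 genes, edgeR called 0 here, DESeq2 called 1 and 3 had an unadjusted p under 0.05 (Nupr1, Atf3 and Atf4). Over all 15648 genes edgeR called 6 (0.0383%) and 1828 had an unadjusted p under 0.05, and DESeq2 called 500 of 16990.

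The comparisons that do not involve AL + NaIO3 gave small values for Nupr1. Its log2 fold change was 0.28 (SE 0.20, 95% interval -0.17 to 0.73) in IF + PBS against AL + PBS and 0.12 (SE 0.25, 95% interval -0.43 to 0.67) in IF + NaIO3 against IF + PBS. When 1 library was left out, the first lay between 0.16 and 0.47 and the second between -0.11 and 0.32. The difference between the effects of NaIO3 in IF and in AL mice, which is the interaction of diet and injection over 12 libraries, was -1.77 on the log2 scale (SE 0.36, 95% interval -2.55 to -0.996) with an adjusted p of 0.113 by edgeR. At an adjusted p under 0.05 the interaction was called for 0 of the 10 genes by edgeR and for 5 of all 15970 genes (0.0313%). DESeq2 called 1 of the 10, Nupr1, with an adjusted p of 0.000984, beside 213 of all 17041 genes, and Nupr1 was also the 1 gene of the 10 whose unadjusted p was under 0.05. Without AL + NaIO3 replicate 1, edgeR called the interaction of Nupr1 with an adjusted p of 0.0389, beside 366 of all 16207 genes, and in the other 11 fits that left out a library it did not (adjusted p 0.0669 to 0.368).

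**Figure D2:**
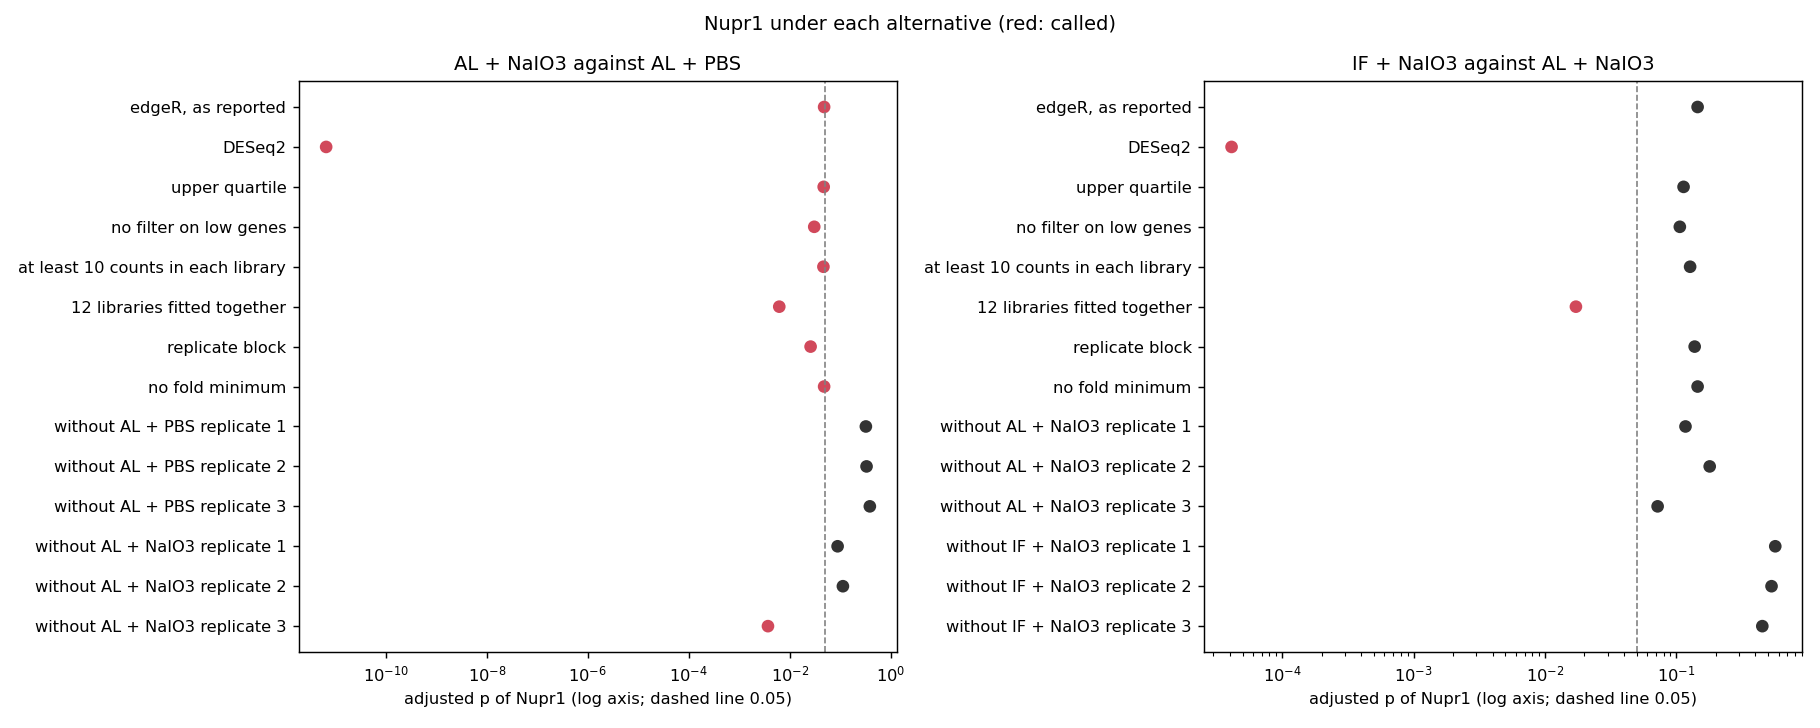
Adjusted p of Nupr1 (horizontal log axis) in AL + NaIO3 against AL + PBS (left) and in IF + NaIO3 against AL + NaIO3 (right), as reported and under each alternative (vertical axis). Red points are calls and the dashed line marks 0.05. On the left, the gene was called under the 7 alternatives that keep the 6 libraries and in 1 of the 6 that leave out a library, and on the right under DESeq2 and the fit of 12 libraries.

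Marker sums of several other cell types were highest in the libraries with the highest Nupr1. The 10 microglia and macrophage markers summed to between 56.7 and 59.6 CPM in AL + PBS, 48.7 and 65.3 in IF + PBS, 127 and 343 in AL + NaIO3 and 49.9 and 69.05 in IF + NaIO3. All 10 had positive log2 fold changes in AL + NaIO3 against AL + PBS (median 2.34), 9 with an unadjusted p under 0.05 and 0 called by edgeR, while DESeq2 called 8. Over all genes 1599 of 15612 had an unadjusted p under 0.05, edgeR called 12 and DESeq2 called 443 of 18012. Marker sums of choroid endothelium (226.6 to 467.6 CPM, at most 199.8 in other libraries) were also highest in the 3 AL + NaIO3 libraries. So were those of T and B lymphocytes (3.52 to 9.99 CPM, at most 2.20) and of neutrophils (4.17 to 7.25 CPM, at most 4.004). Of the 6 endothelium markers, Kdr had the highest mean (247 CPM, and 160 in AL + PBS), while Cdh5 and Plvap overlapped AL + PBS. Of the 6 neutrophil markers 2 were tested, Csf3r (mean 4.66 CPM, and 1.28 in AL + PBS) and S100a9. The mean of S100a9 was 0.532 CPM in AL + NaIO3, 0.381 in AL + PBS, with overlap, and 0.696 in IF + PBS. The 8 Müller glia and astrocyte markers summed to 6040 to 9030 CPM in AL + NaIO3 and to 4924 to 5808 in the other groups. Within that list the mean of Apoe was 1044 CPM in AL + PBS and 2698 in AL + NaIO3 and that of Gfap 17.1 and 172, while that of Glul was 2629 and 2116. The 10 RPE markers summed to 1296 to 1530 CPM in AL + NaIO3, 1511 to 2407 in IF + NaIO3, 2307 to 2502 in AL + PBS and 2600 to 3114 in IF + PBS. Rlbp1, which is also in the Müller glia list, had means of 472 CPM in AL + NaIO3 and 515 in AL + PBS. Those of Otx2 were 235 and 266, of Rpe65 48.7 and 119.5 and of Rgr 190.5 and 522. In AL + NaIO3 against AL + PBS, 2 of the 10 RPE markers had positive log2 fold changes. Of these 10, Slc16a8 fell in AL + NaIO3 against AL + PBS by edgeR (adjusted p 0.0392), where the AL + NaIO3 libraries lay below the AL + PBS libraries for it and for Rpe65, Lrat, Rdh5, Rgr and Ttr, beside 18.1% of all genes that did not overlap in either direction. By edgeR 0 of the 10 were called in IF + NaIO3 against AL + NaIO3, with 4 at an unadjusted p under 0.05, and the libraries did not overlap for Rpe65, Rgr, Otx2 and Slc16a8, all higher in IF + NaIO3, or for Best1, which was lower, beside 18.9% of all genes. In AL + NaIO3 replicate 3 the markers of choroid and sclera stroma summed to 1393 CPM and those of melanocytes and pigment to 2008 CPM, against at most 226.5 and 322.5 in any other library. Cornea and conjunctiva markers summed to 490.5 CPM in AL + NaIO3 replicate 2, against at most 102.7 elsewhere. Lens markers summed to 203.9 CPM in AL + PBS replicate 2, against at most 5.45 elsewhere. The part of these cell types in the levels of Nupr1 was not tested. Across the 12 libraries the 3 genes most like Nupr1 by Pearson correlation of log2 CPM were Clec2d (r = 0.977), H2-K1 (r = 0.976) and Cxcl16 (r = 0.965), among 15960 genes compared. These libraries share 4 groups, and the values are a description.

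**Figure D3:**
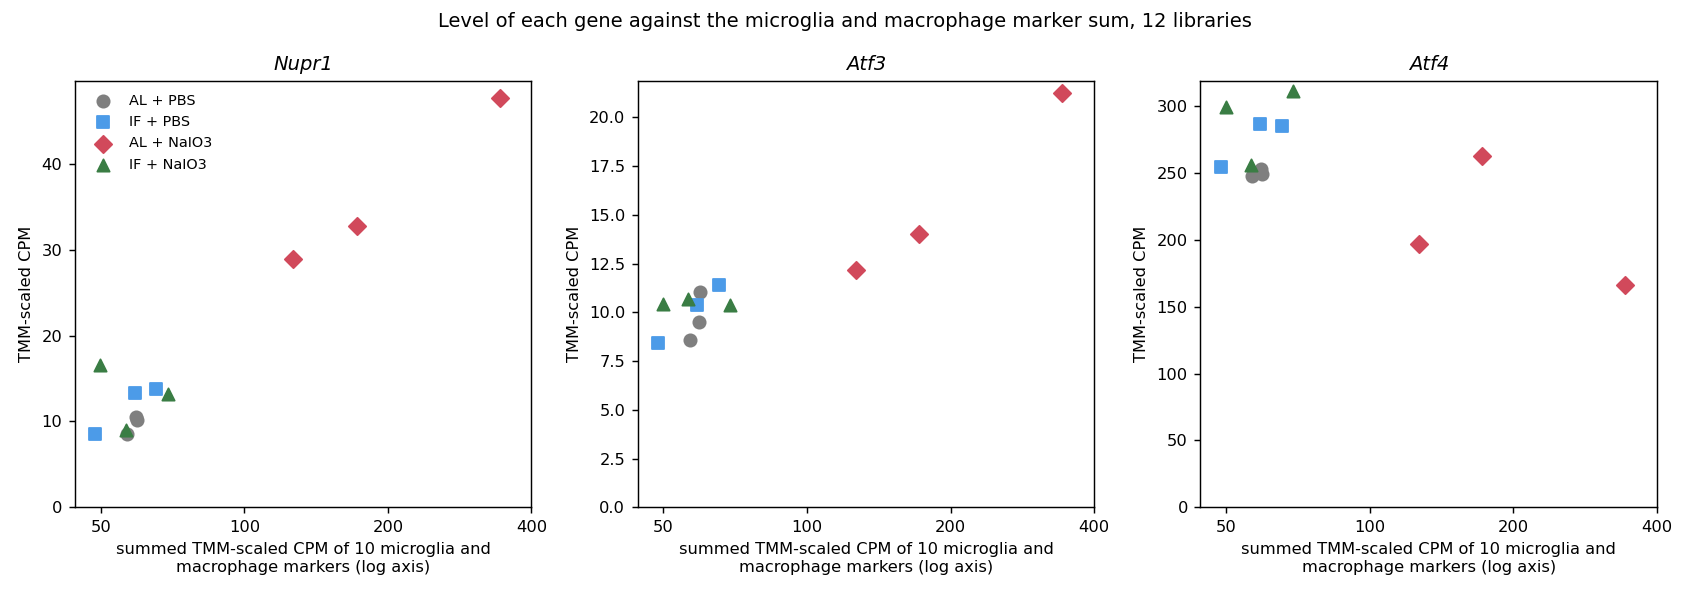
TMM-scaled CPM of Nupr1, Atf3 and Atf4 (vertical axes) against the summed TMM-scaled CPM of 10 microglia and macrophage markers (horizontal log axis) in the 12 libraries, coloured by group. The 3 AL + NaIO3 libraries stand apart with sums of 127 to 343 CPM, at the highest levels of Nupr1 and Atf3, and the library with a sum of 343 CPM has the lowest level of Atf4.

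The transcription factors came next. ATF4 is the central factor of the response, and ATF5 is a related bZIP factor that is under the same kind of translational control. Atf4 was at 247.8, 252.8 and 249.1 CPM in AL + PBS, at 255, 285 and 287 in IF + PBS, at 263, 197 and 166 in AL + NaIO3 and at 312, 299.8 and 256 in IF + NaIO3. The AL + PBS libraries lay close together, whereas the AL + NaIO3 libraries were spread, with the lowest value in the replicate in which Nupr1 was highest. The log2 fold change was -0.26 (SE 0.18, adjusted p = 0.658) in AL + NaIO3 against AL + PBS and 0.46 (SE 0.19, adjusted p = 0.404, unadjusted p = 0.0386) in IF + NaIO3 against AL + NaIO3, by edgeR. Without AL + NaIO3 replicate 3 these values were -0.12 and 0.32, and without AL + NaIO3 replicate 1 they were -0.46 and 0.67. The messenger RNA of Atf4 was therefore not called in either comparison.

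Atf5 was at 33.8, 35.5 and 31.2 CPM in AL + PBS, at 30.6, 48.6 and 43.1 in IF + PBS, at 36.1, 32.5 and 44.7 in AL + NaIO3 and at 33.4, 34.3 and 33.5 in IF + NaIO3. All groups overlapped. Its log2 fold changes lay between -0.27 and 0.29 in the 4 comparisons of groups and none was called. Atf5 overlaps Nup62 and Il4i1 on chromosome 7, and how the authors assigned reads of overlapping genes is not given in the sources used here, so its counts are uncertain.

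ATF3 is an immediate stress-induced repressor and activator of the same family. Atf3 was at 8.60, 9.49 and 11.04 CPM in AL + PBS, at 8.45, 11.4 and 10.4 in IF + PBS, at 13.99, 12.2 and 21.2 in AL + NaIO3 and at 10.4, 10.4 and 10.7 in IF + NaIO3. As with Nupr1, the 3 AL + NaIO3 libraries were the highest of the 12 and the other groups overlapped, but the gap to the nearest library was small. The log2 fold change was 0.71 (SE 0.25, 95% interval 0.13 to 1.29, adjusted p = 0.393, unadjusted p = 0.0225) in AL + NaIO3 against AL + PBS and -0.60 (SE 0.24, 95% interval -1.15 to -0.04, adjusted p = 0.405, unadjusted p = 0.0391) in IF + NaIO3 against AL + NaIO3, by edgeR. Neither was called under any of the 13 alternatives. Without AL + NaIO3 replicate 3, in which Atf3 was highest, the values moved to 0.43 and -0.33. Across the 12 libraries Atf3 and Nupr1 had a Pearson r of 0.89 and a Spearman rho of 0.804, an r of 0.721 without the 2 libraries farthest from the median of Atf3, and an r of 0.692 after group means were subtracted. The genes most like Atf3 were Cd84 (r = 0.963), Clec4n (r = 0.957) and Ptprc (r = 0.955), of which Ptprc is in the microglia and macrophage list. The part of these cells in the levels of Atf3 was not tested.

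Ddit3 encodes CHOP, a bZIP factor that drives cell death genes when stress is prolonged. It was at 51.0, 51.4 and 52.1 CPM in AL + PBS, at 51.2, 65.7 and 63.0 in IF + PBS, at 49.6, 52.1 and 41.8 in AL + NaIO3 and at 58.9, 51.8 and 42.0 in IF + NaIO3. All groups overlapped. By edgeR, the log2 fold change in AL + NaIO3 against AL + PBS was -0.10 (SE 0.12, adjusted p = 0.812), and its 95% interval of -0.38 to 0.17 leaves room for a fold change between 0.770 and 1.13. That in IF + PBS against AL + PBS was 0.22 (SE 0.11, adjusted p = 0.315). Ddit3 overlaps Mars1 on chromosome 10, so its counts are uncertain in the same way as those of Atf5.

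TRIB3 is a pseudokinase that is induced by ATF4 and CHOP and limits AKT signalling and ATF4 itself. Trib3 was at 8.95, 9.78 and 8.78 CPM in AL + PBS, at 10.02, 17.4 and 13.3 in IF + PBS, at 8.79, 9.66 and 7.66 in AL + NaIO3 and at 11.9, 10.9 and 7.96 in IF + NaIO3. The 3 IF + PBS libraries lay above the 3 AL + PBS libraries. In IF + PBS against AL + PBS the log2 fold change was 0.57 (SE 0.20, 95% interval 0.12 to 1.01), or 1.48-fold, with an adjusted p of 0.224 and an unadjusted p of 0.0173 by edgeR. Without IF + PBS replicate 1, the lowest of that group, it was 0.74 with an adjusted p of 0.0251, which is a call, beside 472 of all 15602 genes in that fit, and without IF + PBS replicate 2, the highest, it was 0.35 with an adjusted p of 0.528. Of the 10 genes, edgeR called 0 in this comparison, DESeq2 called 0 and 1 (Trib3) had an unadjusted p under 0.05. Of all 15361 genes edgeR called 0 (0%), with 2623 at an unadjusted p under 0.05. DESeq2 called 172 of the 14668 genes it tested.

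Trib3 and Ddit3 varied together over the libraries, with a Pearson r of 0.922 and a Spearman rho of 0.825 (12 libraries), an r of 0.9 without the 2 libraries farthest from the median of Ddit3, and an r of 0.911 after group means were subtracted. This was the highest Pearson r over the 12 libraries among the pairs of these genes. Asns and Psat1 had a higher rho (0.832), and Nupr1 and Psat1 a higher r after group means were subtracted (0.915). These values describe 12 libraries that share 4 groups. The genes most like Trib3 were Gfra4 (r = 0.969), Lemd2 (r = 0.957) and Adprhl2 (r = 0.948), and those given for Ddit3 were Dpm2 (r = 0.954) and Mrps7 (r = 0.937). For Atf4 they were Dynll1 (r = 0.97), H2aw (r = 0.967) and Tmem218 (r = 0.966), and for Atf5 they were Srxn1 (r = 0.957), Zfp651 (r = 0.904) and Sec61a1 (r = 0.903).

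Chac1 and Sesn2 act in redox and nutrient control. CHAC1 degrades glutathione, and SESN2 (sestrin 2) restrains mTORC1 when leucine is short. Chac1 was the least abundant gene, at 5.65, 3.92 and 3.96 CPM in AL + PBS, 4.16, 4.004 and 4.74 in IF + PBS, 4.78, 4.94 and 5.32 in AL + NaIO3 and 3.77, 3.50 and 4.27 in IF + NaIO3, from 121 to 198 counts in a library. Sesn2 was at 25.4, 23.97 and 22.4 CPM in AL + PBS, 25.03, 23.8 and 28.5 in IF + PBS, 24.6, 25.3 and 26.1 in AL + NaIO3 and 21.9, 20.9 and 22.1 in IF + NaIO3. Both genes lay lower in the 3 IF + NaIO3 libraries than in the 3 AL + NaIO3 libraries, and Sesn2 also lay lower in them than in the 3 IF + PBS libraries. By edgeR, the log2 fold change in IF + NaIO3 against AL + NaIO3 was -0.39 (SE 0.27, adjusted p = 0.596) for Chac1 and -0.23 (SE 0.13, adjusted p = 0.528) for Sesn2. In IF + NaIO3 against IF + PBS, Sesn2 had a log2 fold change of -0.25 (SE 0.12, adjusted p = 0.348). None of these passed the threshold. The genes most like Chac1 were Cdc14b (r = 0.907), Isg15 (r = 0.904) and Ripor3 (r = 0.88), and those most like Sesn2 were Dctd (r = 0.91), Tnip1 (r = 0.893) and Tmem143 (r = 0.89).

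Asns and Psat1 are the amino acid synthesis enzymes of the set, for asparagine and for serine. Asns was at 35.7, 40.9 and 35.8 CPM in AL + PBS, 33.6, 41.5 and 42.2 in IF + PBS, 40.4, 35.7 and 40.8 in AL + NaIO3 and 44.97, 47.8 and 35.9 in IF + NaIO3. Psat1 was at 46.5, 50.6 and 53.1 CPM in AL + PBS, 45.9, 62.0 and 56.1 in IF + PBS, 44.7, 43.98 and 54.4 in AL + NaIO3 and 57.7, 58.4 and 50.4 in IF + NaIO3. For both genes the groups overlapped in each comparison. The log2 fold changes of Asns lay between 0.06 and 0.14 and those of Psat1 between -0.06 and 0.21. In AL + NaIO3 against AL + PBS the 95% intervals were -0.22 to 0.34 for Asns and -0.36 to 0.23 for Psat1, which bounds the fold change at 0.859 to 1.27 and at 0.779 to 1.18. The genes most like Asns were Ndufa9 (r = 0.91), Tsc22d3 (r = 0.889) and Trappc3 (r = 0.87), and those most like Psat1 were Exoc6b (r = 0.879), Babam2 (r = 0.864) and Hey1 (r = 0.847).

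**Figure D4:**
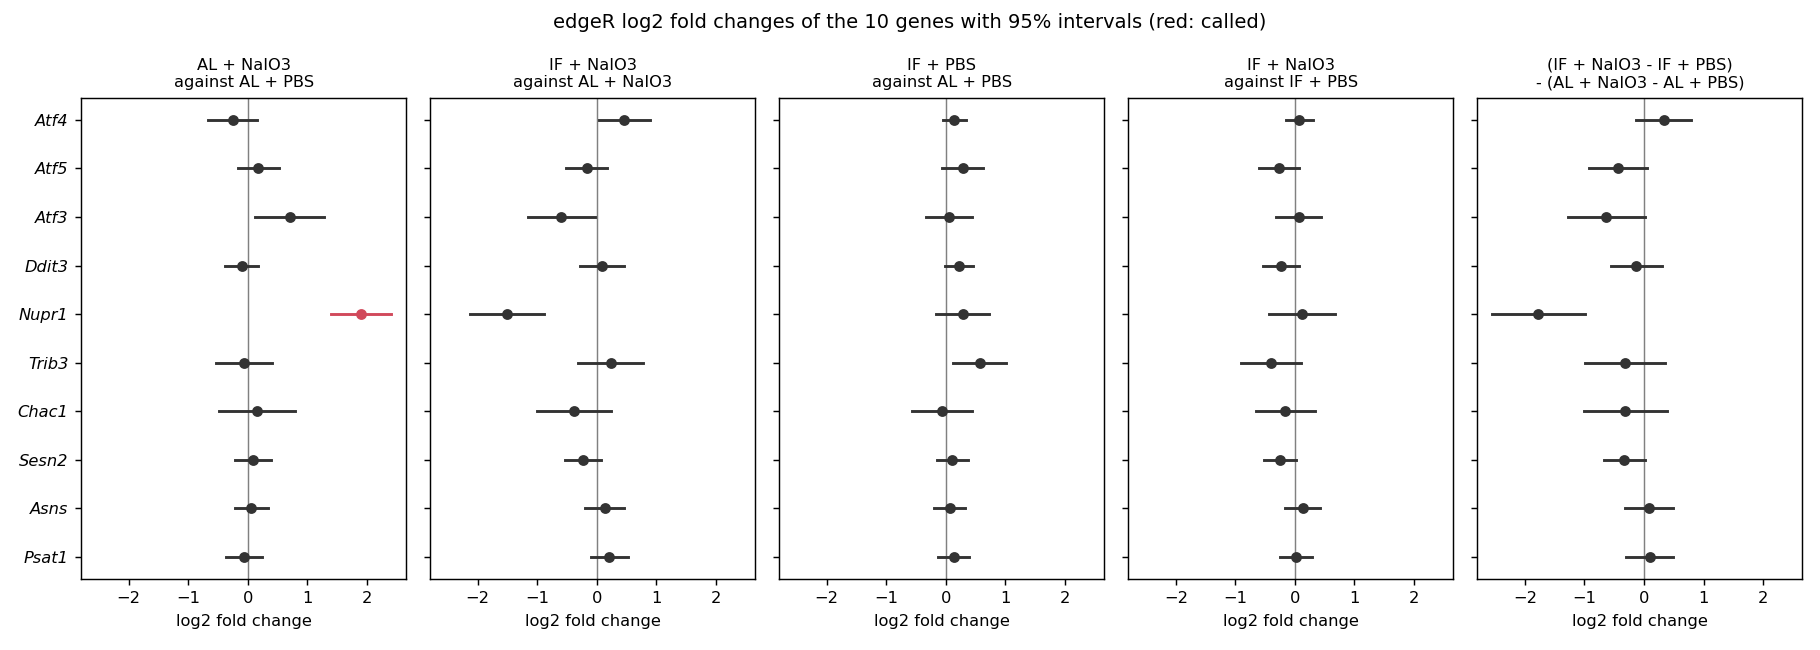
Log2 fold changes (horizontal axes) of the 10 genes with their 95% intervals (lines) by edgeR in the 4 comparisons of groups and in the interaction. Red marks a call. Nupr1 is the only gene called, in AL + NaIO3 against AL + PBS, and the other 9 genes range from -0.26 to 0.71 in that comparison.

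Seen as a set, the 10 genes did not move in one direction after NaIO3. In AL + NaIO3 against AL + PBS, 6 of 10 had a positive log2 fold change, with a median of 0.08 (0.06 without Nupr1) beside a median of 0.01 over all genes tested. The groups did not overlap for 2 of the 10 (Atf3 and Nupr1, both higher after NaIO3), and for 18.1% of all genes tested. In IF + NaIO3 against AL + NaIO3, 5 of 10 were positive with a median of -0.04 beside -0.01, and the groups did not overlap for 4 of the 10 (Atf3, Nupr1, Chac1 and Sesn2, all lower in IF + NaIO3), beside 18.9% of all genes.

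In IF + PBS against AL + PBS, 9 of 10 were positive with a median of 0.14 beside 0.01 over all genes, and Chac1 was the exception with -0.06. In the same comparison the 7 skeletal muscle, 5 cornea and conjunctiva epithelium and 7 choroid and sclera stroma markers were all negative, with medians of -1.66, -1.96 and -0.85, 7, 5 and 5 at an unadjusted p under 0.05 and 0 called by edgeR. Their part in the levels of these genes, Trib3 included, was not tested. The groups did not overlap for 2 of the 10 (Atf4 and Trib3, both higher in IF + PBS), beside 21.9% of all genes, so this count was near the background. In IF + NaIO3 against IF + PBS, 5 of 10 were positive with a median of -0.07 beside 0.00097, and the groups did not overlap for 1 of the 10 (Sesn2), beside 20.9% of all genes. Here edgeR called 0 of the 10 genes and 0 of all 15305 genes (0%). An unadjusted p under 0.05 was seen for 0 of the 10 and 2326 of all genes by edgeR. DESeq2 called 0 of the 10 and 79 of the 10830 genes it tested. In the interaction, 3 of 10 were positive (Atf4, Asns and Psat1) with a median of -0.32 beside -0.02. These comparisons share libraries, so their values are not separate evidence.

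Several of the genes had the highest or lowest level of a group in the same library. Among 3 libraries 1 is always the lowest, so the share over all genes is given beside each count. IF + PBS replicate 1 was the lowest of its group for 8 of the 10 genes (all but Chac1 and Sesn2), and for 39.7% of all 15970 genes tested. AL + NaIO3 replicate 3 was the highest of its group for 7 of the 10 genes and the lowest for the other 3 (Atf4, Ddit3 and Trib3), and it was the highest for 40.4% and the lowest for 36.9% of all genes. IF + NaIO3 replicate 3 was the lowest of its group for 6 of the 10 (Atf4, Ddit3, Nupr1, Trib3, Asns and Psat1), beside 33.96% of all genes. AL + PBS replicate 1 was the lowest of its group for 6 of the 10, beside 35.8% of all genes. IF + PBS replicate 2 was the highest of its group for 6 of the 10, beside 36.3% of all genes.

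The other genes of the pathway were followed in 9 lists with 115 different genes, of which 114 were tested. By edgeR, 1 of them, Cebpd, was called in AL + NaIO3 against AL + PBS, again in IF + NaIO3 against AL + NaIO3 and in the interaction, and 0 in each of the other 2 comparisons. When 1 library was left out, the call of Cebpd was lost in 3 of 6 fits of the first comparison (adjusted p 0.176 to 0.206 by edgeR), in 4 of 6 of the second (0.0573 to 0.217) and in 0 of 12 of the interaction. In the fits that lost it edgeR called 0 to 1 of all genes, and its log2 fold change over all these fits was 2.56 to 2.96 in the first comparison and -2.69 to -2.29 in the second. In IF + PBS against AL + PBS 20 of the 114 had an unadjusted p under 0.05 and DESeq2 called 1, beside 2623 of 15361 and 172 of 14668 over all genes. The numbers in IF + NaIO3 against IF + PBS were 19 and 2, beside 2326 of 15305 and 79 of 10830. In the 3 tests with a call, 12, 16 and 15 of the 114 had an unadjusted p under 0.05 beside 1599 of 15612, 1828 of 15648 and 1910 of 15970 over all genes, and DESeq2 called 4, 5 and 4, beside 443, 500 and 213 over all genes.

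Among the 7 genes of eIF2 kinases and their inputs, 0 were called by edgeR in the 5 tests, and the medians lay between -0.08 and 0.04. Eif2ak2, which encodes the kinase PKR, had the largest values, 0.64 (SE 0.33, adjusted p = 0.546) in AL + NaIO3 against AL + PBS and -0.93 (SE 0.21, adjusted p = 0.208) in IF + NaIO3 against AL + NaIO3 by edgeR. It was at 23.0, 9.54 and 11.7 CPM in AL + PBS and at 18.6, 24.6 and 25.6 CPM in AL + NaIO3, so those groups overlapped. In IF + NaIO3 it was at 9.93, 12.3 and 14.3 CPM, below each AL + NaIO3 library, with an unadjusted p of 0.0022 by edgeR. Among the 10 subunits of eIF2, its exchange factor eIF2B and its phosphatase, 0 were called by edgeR. The log2 fold changes ranged from -0.26 to 0.17 in AL + NaIO3 against AL + PBS and from -0.08 to 0.23 in IF + NaIO3 against AL + NaIO3. Ppp1r15a, the stress-induced phosphatase subunit GADD34, had the lowest of the first (-0.26, SE 0.14) and Eif2b1 the highest of the second (0.23, SE 0.15).

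Among the 13 partner factors, Cebpd was the 1 gene called by edgeR. Cebpd encodes a C/EBP factor of the acute phase response. It was at 9.46, 11.3 and 12.2 CPM in AL + PBS, 8.58, 9.73 and 11.96 in IF + PBS, 62.5, 66.8 and 104 in AL + NaIO3 and 14.1, 14.02 and 11.6 in IF + NaIO3. The 3 AL + NaIO3 libraries stood far above the rest. By edgeR, its log2 fold change was 2.84 (SE 0.23, adjusted p = 0.0186) in AL + NaIO3 against AL + PBS and -2.56 (SE 0.22, adjusted p = 0.0143) in IF + NaIO3 against AL + NaIO3. Cebpd overlaps Spidr in the count table. The microglia and macrophage, choroid endothelium, lymphocyte, neutrophil and Müller glia marker sums given beside Nupr1 were highest in the same 3 libraries, and their part in the levels of Cebpd was not tested. The other 12 genes of this list, Jun, Fos, Atf6 and Xbp1 among them, were not called by edgeR. The list's median was -0.03 in the first comparison and -0.08 in the second. By edgeR, 4, 5 and 5 of the 13, Cebpd among them, had an unadjusted p under 0.05 in these 2 comparisons and the interaction. Over all genes these were 1599 of 15612, 1828 of 15648 and 1910 of 15970. In IF + PBS against AL + PBS the list ranged from -1.16 to 0.24, with 3 at an unadjusted p under 0.05 by edgeR, beside 2623 of 15361.

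In a list of 16 other stress signalling genes, drawn up as ATF4 targets, 15 were tested and edgeR called 0 in the 5 tests. Control of these genes by ATF4 was not tested. Gadd45b, which encodes a growth arrest protein, was at 4.72, 10.08 and 7.63 CPM in AL + PBS, 8.16, 10.3 and 9.11 in IF + PBS, 19.8, 19.2 and 31.3 in AL + NaIO3 and 10.2, 9.39 and 8.16 in IF + NaIO3. As with Nupr1, the 3 AL + NaIO3 libraries were the highest. Its log2 fold change was 1.65 (SE 0.32, adjusted p = 0.175) in AL + NaIO3 against AL + PBS and -1.35 (SE 0.24, adjusted p = 0.135) in IF + NaIO3 against AL + NaIO3, by edgeR, so neither was called. The microglia and macrophage, choroid endothelium, lymphocyte, neutrophil and Müller glia marker sums were highest in the same 3 libraries. Their part in the levels of Gadd45b was not tested. The list had 8 of 15 positive values in the first comparison, with a median of 0.18.

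The lists of amino acid supply held no call by edgeR either. Of 16 genes of amino acid and one-carbon synthesis, 9 were positive in AL + NaIO3 against AL + PBS (median 0.07) and 5 in IF + NaIO3 against AL + NaIO3 (median -0.21). Phgdh, the first enzyme of serine synthesis and upstream of Psat1, was at 31.02, 33.6 and 33.5 CPM in AL + PBS, 30.8, 34.6 and 44.9 in IF + PBS, 16.8, 19.1 and 27.6 in AL + NaIO3 and 24.8, 12.97 and 21.5 in IF + NaIO3. Every NaIO3 library lay below every PBS library, unlike for Psat1. Of all genes, 18.1% in AL mice and 20.9% in IF mice did not overlap in either direction. The RPE marker sums were also lower after NaIO3 in each diet, and their part in the levels of Phgdh was not tested. The log2 fold change of Phgdh was -0.62 (SE 0.20, adjusted p = 0.342) in AL mice and -0.89 (SE 0.22, adjusted p = 0.212) in IF mice, by edgeR, and neither was called. Pycr1, a proline synthesis enzyme, was between 0.719 and 2.98 CPM in the 12 libraries and had a log2 fold change of -0.85 (SE 0.52) in IF + NaIO3 against AL + NaIO3.

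Of 12 amino acid transporters, 8 were positive in AL + NaIO3 against AL + PBS (median 0.22) and 4 in IF + NaIO3 against AL + NaIO3 (median -0.18). Slc7a11, the cystine transporter that feeds glutathione synthesis, was at 10.8, 7.07 and 31.1 CPM in AL + NaIO3 and between 4.43 and 8.97 CPM in the other 9 libraries. Its log2 fold change of 1.16 (SE 0.51, adjusted p = 0.499 by edgeR) in AL + NaIO3 against AL + PBS stood beside a value in replicate 3 above all others and a value in replicate 2 within the range of the PBS groups. AL + NaIO3 replicate 3 also had the highest stroma and pigment marker sums, 1393 and 2008 CPM. Their part in the levels of Slc7a11 was not tested. The 9 glutathione cycle genes, Slc7a11 among them, had medians of 0.08 and -0.12 in these comparisons. The 19 cytosolic aminoacyl-tRNA synthetases ranged from -0.20 to 0.25 in the first comparison and from -0.20 to 0.23 in the second. Lars had the highest value of the first (0.25, SE 0.10) and Farsb of the second (0.23, SE 0.17).

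The 15 genes of ER chaperones and of the IRE1 and ATF6 arms run beside the PERK arm of the unfolded protein response. Of these, 4 were positive in AL + NaIO3 against AL + PBS (median -0.10), 11 in IF + NaIO3 against AL + NaIO3 (median 0.23) and 13 in the interaction (median 0.28), and 0 were called by edgeR in each, with 1, 3 and 2 at an unadjusted p under 0.05, beside 1599 of 15612, 1828 of 15648 and 1910 of 15970 of all genes. Of all genes 52.3%, 48.1% and 47.6% were positive. In IF + PBS against AL + PBS 4 were positive (median -0.05), and in IF + NaIO3 against IF + PBS 11 were (median 0.21), with 0 called and 4 at an unadjusted p under 0.05 in each, beside 2623 of 15361 and 2326 of 15305 of all genes and 50.9% and 50.2% positive. Creld2, an ER stress protein, had log2 fold changes of -0.38 (SE 0.17) and 0.49 (SE 0.18) in AL + NaIO3 against AL + PBS and in IF + NaIO3 against AL + NaIO3, and Sdf2l1, a cofactor of the chaperone BiP, of -0.42 (SE 0.26) and 0.29 (SE 0.25). The rod and cone markers also had a lower sum in AL + NaIO3 replicates 2 and 3 (34650 and 18200 CPM) than in the other 10 libraries (45670 to 59350 CPM), and their part in these values was not tested.

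**Figure D5:**
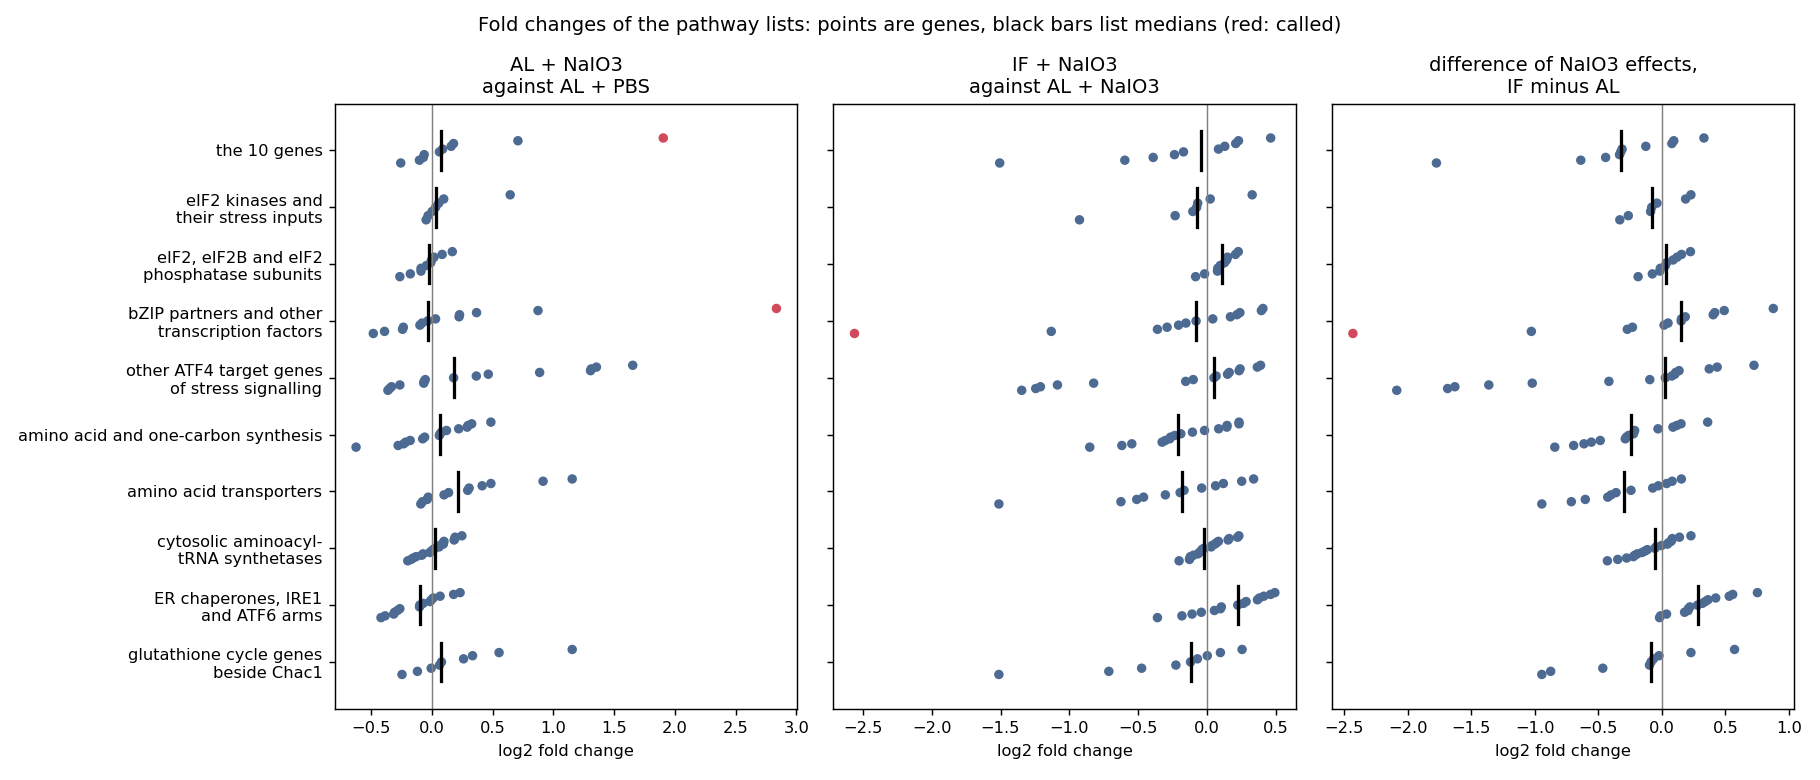
Log2 fold changes (horizontal axes) of the 10 genes and of the genes of the 9 pathway lists (vertical axis) in AL + NaIO3 against AL + PBS, in IF + NaIO3 against AL + NaIO3 and in the interaction. Points are genes, black bars are list medians and red points are calls by edgeR. List medians stay between -0.32 and 0.28, and the called points are Nupr1 in the first panel and Cebpd in all 3.

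By position, the 10 genes lie on 8 chromosomes of build GRCm38, the build that the coordinates of the count table fit. All 10 overlapped the RefSeq gene of the same symbol in GRCm38.p6, whereas 2 overlapped the GENCODE gene of the same symbol in GRCm39. Nupr1 spans chr7:126623249-126630861, Atf3 chr1:191170296-191218039, Atf4 chr15:80255184-80257541, Trib3 chr2:152337422-152344032 and Chac1 chr2:119351229-119354381. Atf5 spans chr7:44812256-44816658, Ddit3 chr10:127290774-127296288, Asns chr6:7675169-7693254, Sesn2 chr4:132492032-132510501 and Psat1 chr19:15904678-15947337. RefSeq also places Gm39087 over part of the Nupr1 span, and the counts of Nupr1 could include its reads.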

How the data were processed

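RNA-seq was analysed in 12 libraries, 3 in each of 4 groups, which were assigned from the sample labels. The authors selected poly-A RNA and sequenced it. The deposited counts are whole numbers per gene, and the submitters' processing notes name HISAT2, StringTie, edgeR and DESeq2 with GRCm39, while the coordinates fit GRCm38. Use of strand in counting is not given in the sources used here, so reads of overlapping genes can be mixed. FPKM values (counts per gene length and library size) by the authors were used only for levels between genes. The authors' own table of fold changes and p-values was not used. 0 per-sample columns were left unassigned.

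Counts were tested in R 4.3.3 with edgeR 4.0.16 (TMM scaling, filterByExpr, quasi-likelihood test, Benjamini-Hochberg adjustment over all genes tested). Each comparison was fitted to its 6 libraries and the interaction to 12. Calls needed an adjusted p under 0.05 and, except for the interaction, a fold change of at least 1.5. CPM values are scaled by TMM factors, and log2 CPM used a prior count of 2. With 26364665 to 43046950 counts a library, the precision is set by the spread between 3 libraries a group. The p-values of edgeR weigh a difference against that spread, which is estimated with information shared over all genes.

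All 10 genes are named. From each pathway list the genes called by edgeR are named. Otherwise the largest change in AL + NaIO3 against AL + PBS or in IF + NaIO3 against AL + NaIO3 decided. For each of the 10 genes the 3 most correlated genes that do not overlap it are named. One gene that this rule names is not reported here. The genes, lists and naming rule were chosen with earlier results of these data known. The alternatives were DESeq2 1.42.0, upper quartile scaling, no filter, at least 10 counts in each library, 12 libraries fitted together, the replicate number as a block, another fold rule and leaving out each library. For levels they were CPM without TMM factors and FPKM. The scripts were tested on simulated data. No pair of libraries within a group was a duplicate.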

Additional observations from a re-analysis of the deposited data

Results flagged for a closer look

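Among the genes of the pathway lists, the effect of NaIO3 differed between the diets for Cebpd, by the interaction in edgeR, which was called with a log2 value of -2.43 (SE 0.28, adjusted p = 0.00495). Its log2 fold change after NaIO3 was 2.84 in AL mice (3 of 3 libraries above the PBS libraries) and 0.40 in IF mice. The 10 microglia and macrophage markers summed to 127 to 343 CPM in the same 3 AL + NaIO3 libraries and to at most 69.05 CPM in the other 9, and their part in the difference was not tested. The interaction of Cebpd was called without each of the 12 libraries in turn (-2.57 to -2.17). Cebpd overlaps Spidr, and whether reads of one gene were counted for the other was not tested. None of the 10 integrated stress response genes was called in the interaction by edgeR, and Nupr1 had the lowest adjusted p among them (0.113).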

How the results depend on the processing

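The number of the 10 genes called was 1 in AL + NaIO3 against AL + PBS under each alternative that kept the 6 libraries, with 1 called under the replicate block, and 0 to 1 when 1 library was left out. In IF + NaIO3 against AL + NaIO3 it was 0, and 1 under DESeq2 and 1 with the 12 libraries fitted together. In IF + PBS against AL + PBS it was 0, and 0 to 1 when 1 library was left out. In IF + NaIO3 against IF + PBS it was 0 under all alternatives run. For the interaction it was 0, with 1 under DESeq2 and 0 to 1 when 1 library was left out. The calls gained or lost were those of Nupr1 and, in IF + PBS against AL + PBS, of Trib3. Calls over all genes moved too when 1 library was left out, being 0 to 90, 0 to 75, 1 to 472, 0 to 197 and 3 to 366 in these 5 tests in order. The cause was not tested.

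Of 700 refitted fold changes of these genes, 15 changed sign, in 9 of 50 results, the largest of which was 0.122 on the log2 scale as reported. Replicate numbers are shared across groups but did not pair the libraries, since the correlation of deviations was between -0.101 and 0.138 and was over 0.1 in 1 of 18 pairs. With the replicate block, all genes called rose from 12 to 28 in AL + NaIO3 against AL + PBS and from 6 to 28 in IF + NaIO3 against AL + NaIO3, and 1 of 12 libraries correlated best with its own number. DESeq2 called 443 and 500 genes in these comparisons and 213 in the interaction, where edgeR called 5. Chac1 had the fewest counts of the 10 genes, 121 to 198 a library, and thus the largest counting error.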
